A study of Mus musculus with 2 samples.

Results

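The 10 genes described here carry signals from receptors of the tumour necrosis factor family to nuclear factor kappa B (NF-kB): the receptors Ltbr, Tnfrsf1a and Tnfrsf11a, the transducers Map3k14 and Traf3, the transcription factor subunits Nfkb1, Nfkb2, Rela and Relb, and the inhibitor Nfkbia. They were chosen by gene symbol, and all 10 were found among the 32285 genes counted in both libraries. In the canonical route, receptors such as that for tumour necrosis factor free the Nfkb1-Rela dimer from its cytoplasmic inhibitor. In the alternative route, the lymphotoxin beta receptor and RANK, the product of Tnfrsf11a, disarm the TRAF3 complex, the kinase NIK accumulates, and Nfkb2 is processed to a form that enters the nucleus with Relb. Lymph nodes do not form in mice that lack the lymphotoxin beta receptor, and in the adult its signal maintains high endothelial venules, the vessels through which lymphocytes enter the node.

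The mice were wild type (WT) or Xbp1-KO, and endothelial cells were sorted from their nodes for droplet single-cell RNA sequencing; Xbp1 encodes a transcription factor of the secretory pathway and the unfolded protein response. All mice, WT included, had been given tamoxifen, and no Cre line, further allele, age, sex or number of animals per pool was stated. Peripheral and mesenteric nodes of each genotype made 4 groups. Each group was marked with its own hashtag, an antibody that carries a DNA tag, and entered both libraries once, which gave 8 pools and n = 2 per group. Leukocytes had been depleted with CD45 beads and the digestion is described for peripheral nodes only. Nothing states that the pools of a group came from separate animals, so p-values measure the spread between these pools.

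The libraries held 7709 and 2903 barcodes and 33024170 and 14744778 gene UMIs, and they shared 3 barcodes. The cells formed a high endothelial-like class (468 cells, 62624 to 1113937 UMIs per pool), other blood endothelial cells (4849 cells, 820326 to 2897718) and lymphatic endothelial cells (3730 cells, 425826 to 6537623). Glycam1, the mucin of high endothelial venules, stood at 96588, 226 and 3126 CPM in the 3 classes in that order, and Prox1, which defines lymphatic endothelium, at 3.81, 6.28 and 738 CPM; Spon2, another gene of the high endothelial marker set, was at 0.254 CPM in the class named for it. Xbp1 itself was at 307 to 500 CPM in WT against 208 to 329 CPM in KO high endothelial-like sums, at 169 to 250.03 against 89.7 to 133 in other blood, and at 56.4 to 122 against 47.3 to 53.7 in lymphatic cells. Xist, the X-inactivation transcript of female cells, was found in 82.5% and 73.1% of cells of the KO pools and 1.29% and 1.77% of the WT pools of library 1, and the other way round in library 2 (0.608% and 0.115% of KO cells, 85.4% and 76.8% of WT cells). Within a library, genotype and sex therefore cannot be told apart; over both libraries each genotype holds pools of both kinds.

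On GRCm38 (GENCODE M21), the receptor genes lie at chr6:125306571-125313885 (Ltbr, minus strand), chr6:125349362-125362484 (Tnfrsf1a, plus) and chr1:105780718-105847981 (Tnfrsf11a, plus). The transducers lie at chr11:103219762-103267472 (Map3k14, minus) and chr12:111166370-111267153 (Traf3, plus). The subunits lie at chr3:135584655-135691547 (Nfkb1, minus), chr19:46304320-46312385 (Nfkb2, plus), chr19:5637483-5648130 (Rela, plus) and chr7:19606217-19629438 (Relb, minus), and the inhibitor at chr12:55489410-55492647 (Nfkbia, minus). Every one is protein coding.

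Promoters are shown because several of these genes are known targets of the factor they encode or restrain. RefSeq promoter sequence (GRCm38.p6, the 250 bases before a start) was given for 8 of the 10 genes, Nfkb1 and Relb not among them, and was searched on both strands for the NF-kB consensus. The 8 genes had 10 promoters in the table, 3 of them of Nfkb2. A match stood in 5 of these 10, those of Nfkb2, Nfkbia and Traf3, and in 7.25% of all 32851 promoters searched. The 100 bases before the start of Nfkbia (chr12:55492648-55492747, minus strand) and Traf3 (chr12:111166270-111166369, plus strand) follow, 5′ to 3′ on the gene's strand, with the match in capitals.
Nfkbia: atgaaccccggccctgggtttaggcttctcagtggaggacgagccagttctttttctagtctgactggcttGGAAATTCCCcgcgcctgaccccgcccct
Traf3: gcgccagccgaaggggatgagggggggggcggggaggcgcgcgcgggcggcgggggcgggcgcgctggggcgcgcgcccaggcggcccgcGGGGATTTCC
The Nfkbia match ends 20 bases and the Traf3 match 1 base before the start. Nfkb2 held matches before each of 3 RefSeq starts, among them GGGGCTTTCC 11 to 2 bases and GGGAATTCCC 39 to 30 bases before the most upstream start. A match of letters is a description of the sequence and not a measured binding site.

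All 10 genes had UMIs in all 13 endothelial subsets, which were found by clustering and are called here by the genes that lead them; the lowest total was 4 UMIs, of Tnfrsf11a in the Aqp7 and Fabp4 subset, and the share that comes from free RNA was not tested. The levels below are CPM, without TMM scaling, of all pools summed, with the range over pools that gave at least 20000 UMIs in the subset, and are a description without a test. Tnfrsf11a varied most, over 4.97 on the log2(CPM + 1) scale, followed by Map3k14 (2.98) and Nfkbia (2.72); Rela (1.20) and Ltbr (0.82) varied least. Of the 120 neighbouring pairs in the 10 orders of subsets, 9 kept their order in every pool that could be compared, so most neighbours did not differ beyond their spread.

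**Figure D1:**
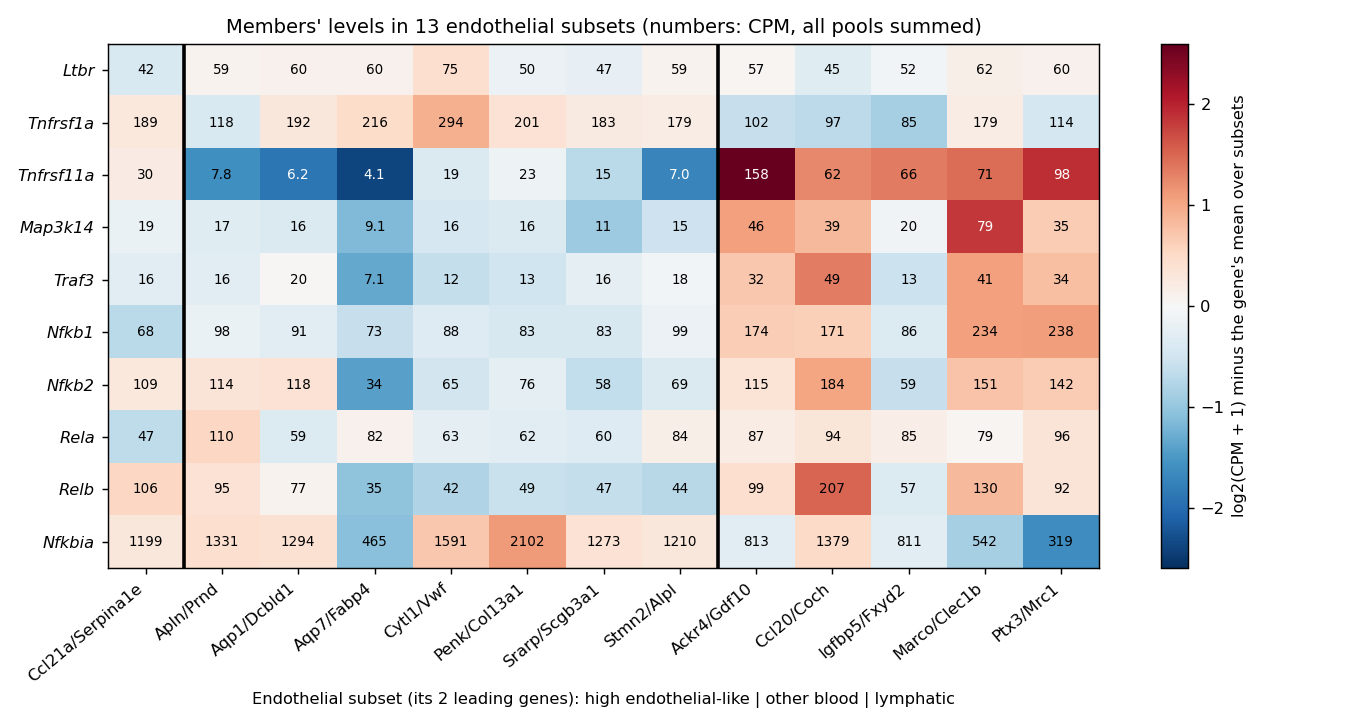
Level of each of the 10 genes (rows) in 13 endothelial subsets (columns, separated by black lines into high endothelial-like, other blood and lymphatic). Numbers are CPM of all pools summed and colours the log2(CPM + 1) minus the gene's own mean; Tnfrsf11a runs from 4.06 CPM in the subset led by Aqp7 and Fabp4 to 158 CPM in that led by Ackr4 and Gdf10, while Ltbr stays between 42.1 and 75.3 CPM.

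Among the receptors, Ltbr, which binds lymphotoxin and LIGHT, was highest in the blood subset led by Cytl1 and Vwf (75.3 CPM, 47.7 to 90.8 over 5 pools) and lowest in the high endothelial-like cells (42.1 CPM, 33.7 to 63.9 over 8 pools). The first place does not hold by the median over pools, 50.6 CPM, which was below that of the Aqp7 and Fabp4 subset (67.5 CPM). The last place rests on CPM: with TMM scaling, Ltbr was above the other blood cells in 6 of 8 pools. The ranges overlapped, and no neighbouring pair in the Ltbr order kept its order in every pool. Tnfrsf1a, the main receptor for tumour necrosis factor, was also highest in the Cytl1 and Vwf subset (294 CPM, 226 to 405) and lowest in the lymphatic subset led by Igfbp5 and Fxyd2 (84.9 CPM, 41.2 to 244). Tnfrsf11a led in the lymphatic subset of Ackr4 and Gdf10 (158 CPM, 106 to 179), above the next subset in 7 of 7 pools, and the 5 lymphatic subsets took the first 5 places. The lowest of them, the Ccl20 and Coch subset (61.5 CPM), was above the high endothelial-like cells (29.7 CPM) in 8 of 8 pools. In the Aqp7 and Fabp4 subset of blood cells, the shallowest (a median of 1837 UMIs per cell), Tnfrsf11a stood at 4.06 CPM from 4 UMIs, with a median of 0 over pools.

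Of the transducers, Map3k14, which encodes the kinase NIK, was highest in the lymphatic subset led by Marco and Clec1b (78.9 CPM, 60.6 to 82.3), above the next in 8 of 8 pools, and lowest in the Aqp7 and Fabp4 subset (9.14 CPM, 0 to 23.3). Traf3, the adaptor that holds NIK at a low level, was highest in the Ccl20 and Coch subset (49.4 CPM, 33.5 to 62.2). The Igfbp5 and Fxyd2 subset stood apart from the other lymphatic subsets, with Map3k14 at 20.3 CPM and Traf3 at 12.7 CPM, within the pooled levels of the blood subsets for Traf3 (7.11 to 19.5 CPM).

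The alternative-route subunits peaked in the same subset: Relb at 207 CPM (198 to 281) and Nfkb2 at 184 CPM (145 to 256) in the Ccl20 and Coch cells. Relb was above the next subset, Marco and Clec1b (130.4 CPM), in 8 of 8 pools, whereas Nfkb2 was above it (151 CPM) in 6 of 8. The high endothelial-like cells ranked 3 of 13 for Relb (106 CPM, 80.4 to 185) and 7 for Nfkb2 (109 CPM, 64.9 to 166). For Relb they were above the next subset, Ackr4 and Gdf10, in 5 of 8 pools, and below it by the median over pools (105.8 against 106.6 CPM). Nfkb1, the canonical subunit p105/p50, was highest in the Ptx3 and Mrc1 (238 CPM, 152 to 278) and the Marco and Clec1b subsets (234 CPM, 217 to 261). Of these the first was above the second in 1 of 7 pools, and its median over pools was the lower one (215 against 234 CPM). The summed level of Nfkb1 was lowest in the high endothelial-like cells (67.8 CPM, 49.5 to 127), though by the median over pools the Cytl1 and Vwf subset (63.6 CPM) was below them (70.2 CPM). Rela, the subunit p65, had its highest summed level in the blood subset led by Apln and Prnd (110 CPM, 72.1 to 211), but by the median over pools (89.0 CPM) that subset was below the Ptx3 and Mrc1 (94.4 CPM) and the Ccl20 and Coch cells (98.5 CPM), and it was above the next subset in 3 of 7 pools. By CPM Rela was again lowest in the high endothelial-like cells (47.5 CPM, 37.1 to 79.8).

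Nfkbia, which encodes the inhibitor IkB-alpha and is itself induced by the canonical route, showed another order: it was highest in the blood subset led by Penk and Col13a1 (2102 CPM, 1026 to 2457) and lowest in the lymphatic Ptx3 and Mrc1 subset (319 CPM, 220.2 to 488). The high endothelial-like cells (1199 CPM) were above the next subset in the order, Ackr4 and Gdf10 (813 CPM), in 8 of 8 pools. Within the lymphatic class it was highest in the Ccl20 and Coch subset (1379 CPM, 757 to 1819).

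Lymphatic cells were compared with all blood endothelial cells of the same pool (8 sums each, pool as block) to ask how the pathway differs between the vessel systems. By edgeR, all 10 genes passed the adjusted threshold, 7 higher and 3 lower in lymphatic cells, where 59.1% of the 10282 genes tested passed it, 29.0% higher and 30.1% lower. The median log2 fold change of the 10 genes was 0.55, against -0.01 over all genes tested. Scaling by total UMIs in place of TMM moved the median of all genes by 0.27 and the share of higher calls from 49.1% to 73.3%, and left 9 of the 10 genes called, without Ltbr. Over the 11 alternatives, 3842 to 7689 of all genes were called in this comparison.

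Tnfrsf11a was at 58.7, 96.0 and 126 CPM (lowest, median and highest pool) in lymphatic cells and at 4.37, 14.6 and 23.4 CPM in blood endothelium. The 2 sets of pools did not overlap, and the log2 fold change was 2.28 ± 0.19 (SE, n = 8 pools each, edgeR adjusted p = 2.33e-08). Tnfrsf1a went the other way, with 91.1, 114 and 181 CPM in lymphatic and 161, 199 and 228 CPM in blood cells. It was lower in 8 of 8 pools although the ranges overlapped (log2 fold change -0.98 ± 0.11, edgeR adjusted p = 5.23e-07). Ltbr was at 35.2, 53.9 and 67.3 CPM against 47.5, 53.3 and 62.3 CPM; its difference was -0.28 ± 0.08 with TMM (edgeR adjusted p = 0.00921) and -0.01 with total UMIs, and by CPM it was lower in 4 of 8 pools.

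Map3k14 stood at 40.1, 43.6 and 51.1 CPM in lymphatic and 6.38, 16.6 and 18.8 CPM in blood cells. Every lymphatic pool was above every blood pool, with a log2 fold change of 1.29 ± 0.14 (edgeR adjusted p = 3.71e-07). Traf3 was at 18.8, 38.8 and 42.1 CPM against 13.1, 14.9 and 19.1 CPM, higher in lymphatic cells in 8 of 8 pools, with the lowest lymphatic pool inside the blood range (0.90 ± 0.12, edgeR adjusted p = 5.25e-06). Both the kinase and the adaptor that limits it were thus higher in lymphatic cells.

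Among the subunits, Relb was at 127, 138 and 155 CPM in lymphatic and 61.3, 64.9 and 81.7 CPM in blood cells, without overlap (0.78 ± 0.07, edgeR adjusted p = 6.65e-08). Nfkb1 was at 117, 172 and 199.0 CPM against 65.4, 85.2 and 98.4 CPM, also without overlap (0.75 ± 0.09, edgeR adjusted p = 1.21e-06). Nfkb2 and Rela differed less and their pools overlapped. Nfkb2 was at 86.9, 139 and 173 CPM against 64.4, 93.2 and 107 CPM (0.36 ± 0.08, edgeR adjusted p = 0.000693), and in the WT pools alone it was not called (adjusted p = 0.0992). Rela was at 73.5, 90.3 and 98.6 CPM against 53.0, 64.6 and 81.7 CPM (0.21 ± 0.08, edgeR adjusted p = 0.0335), a call that 5 of 11 alternatives did not keep. Nfkbia was lower in lymphatic cells in 8 of 8 pools, at 561, 795 and 1127 CPM against 712, 1550.4 and 1907 CPM, with overlap (-0.92 ± 0.11, edgeR adjusted p = 1.80e-06).

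The 8 lymphatic and 8 blood pools did not overlap for 4 of the 10 genes (Tnfrsf11a, Map3k14, Nfkb1 and Relb), and for 25% of all genes tested. By CPM, 7 of the 10 genes were higher in lymphatic cells in 8 of 8 pools, where 30.2% of genes tested were, and 2 were lower in 8 of 8, where 11.8% were. By TMM-scaled CPM, 5 of the 10 genes were higher in lymphatic cells in 8 of 8 pools, where 19.7% of genes tested were (Tnfrsf11a, Map3k14, Traf3, Nfkb1 and Relb), and 2 were lower in 8 of 8, where 20.1% were (Tnfrsf1a and Nfkbia). Fibroblast and mural markers moved with this comparison: their summed level over 10 genes was 162 to 293 CPM in lymphatic pools, 11.3 to 31.0 CPM in other blood pools and 0 to 21.2 CPM in high endothelial-like pools, mostly Rgs5 (114 CPM in lymphatic cells) and Dcn (64.5 CPM). Of the 10 genes, 9 had a UMI in lymphatic cells and Lum was at 0, and the 3 that could be tested were all called higher there by edgeR: Dcn by 4.02, Rgs5 by 3.33 and the reticular cell chemokine Ccl19 by 4.34 on the log2 scale (23.4 CPM in lymphatic against 0.341 CPM in other blood cells). Ccl19 held 472 UMIs in lymphatic cells, 5 in other blood and 14 in high endothelial-like cells, so its fold change rests on few blood UMIs. Pdgfra was at 0.695, Pdgfrb at 0.298 and Col1a1 at 0.0993 CPM in lymphatic cells. Lymphocyte markers summed to 2.04 to 9.64 CPM there, with 7 of 8 genes having a UMI and the pan-leukocyte gene Ptprc 2 UMIs in all. Dissociation-response genes, the immediate early and heat shock genes that enzymatic digestion is known to induce, summed to 13314 to 27369 CPM in lymphatic and 19448 to 51825 CPM in other blood pools. Against all blood cells, 10 of these 14 genes were called lower and 2 higher in lymphatic cells by edgeR, with a median log2 fold change of -0.51. The part of these lists in the differences was not tested.

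**Figure D2:**
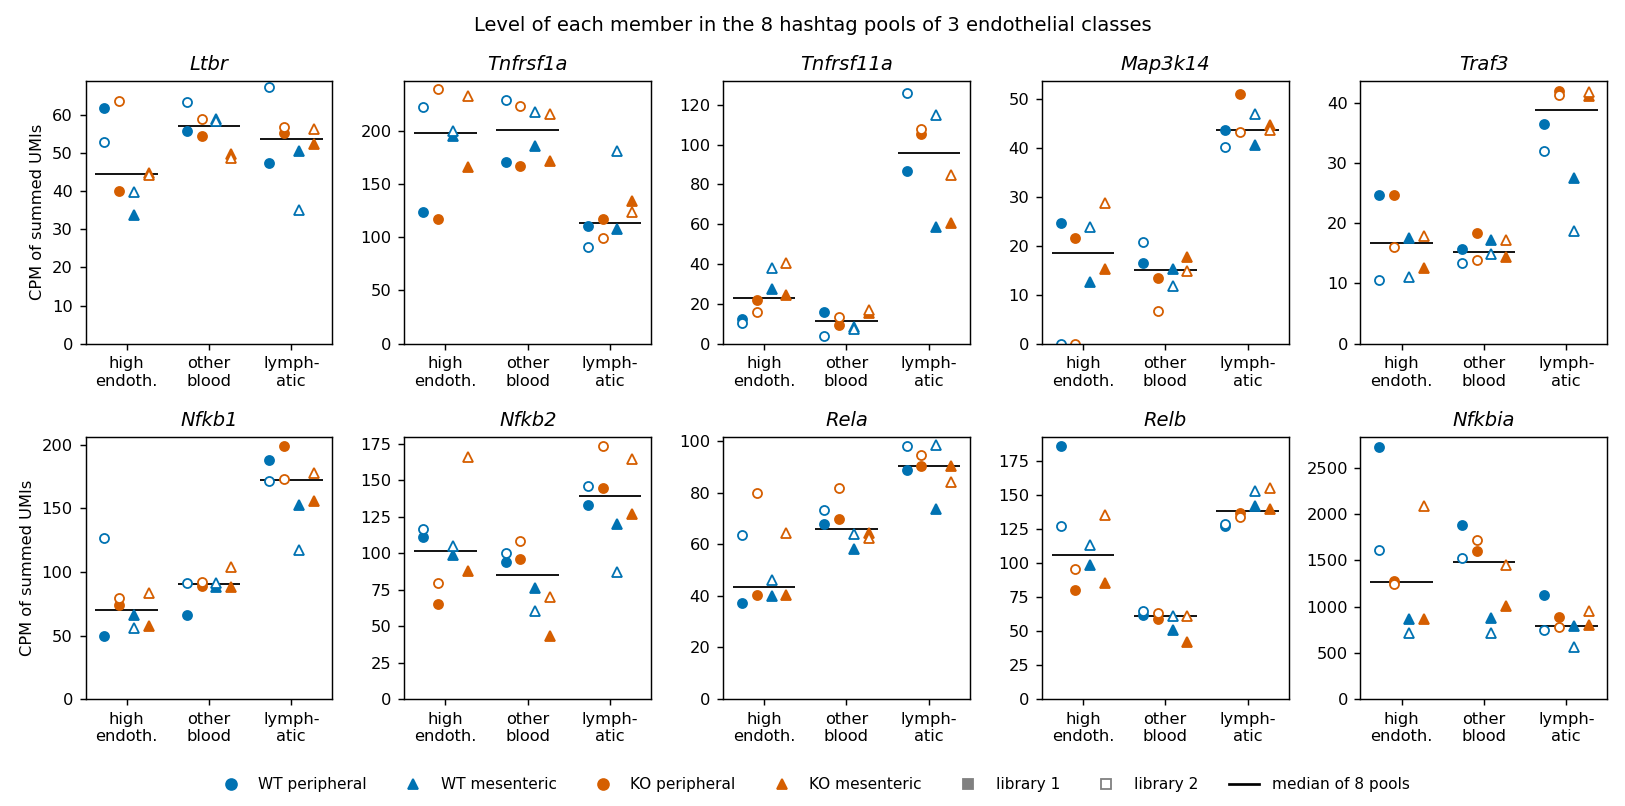
Level of each of the 10 genes in CPM (y axis, from 0) in the 8 hashtag pools of the 3 endothelial classes (x axis). Colour gives the genotype, shape the tissue, filled or open symbols the library, and the line the median. For Tnfrsf11a, Map3k14, Traf3, Nfkb1 and Relb the lymphatic pools sit above all pools of the other blood class.

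High endothelial-like cells were compared with the other blood endothelial cells of the same pools to describe the pathway in the vessels that the lymphotoxin receptor is known to maintain. By edgeR, 6 of the 10 genes were higher and none was lower, where 43.5% of the 7483 genes tested were called, 20.1% higher and 23.4% lower. The median log2 fold change of the 10 genes was 0.35, against -0.04 over all genes tested. This comparison depends on the scaling: total UMIs in place of TMM moved the median of all genes by -0.34 and the share of higher calls from 46.3% to 16.7%. Under that scaling Relb, Tnfrsf11a and Nfkb2 were still called higher, and Nfkb1 (-0.39, edgeR adjusted p = 0.0168) and Rela (-0.43, adjusted p = 0.0156) were called lower.

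Relb was at 80.4, 106 and 185 CPM (lowest, median and highest pool) in high endothelial-like cells and at 41.7, 60.8 and 64.6 CPM in the other blood cells. Every high endothelial-like pool was above every other blood pool (1.30 ± 0.12, n = 8 pools each, edgeR adjusted p = 9.25e-11); 4.45% of genes tested were higher in 8 of 8 pools by CPM and 8.75% on the TMM scale. Relb was the 1 gene of the 10 whose 2 sets of pools did not overlap, as was so for 15.2% of genes tested. Its partner Nfkb2 was at 64.9, 102 and 166 CPM against 43.3, 84.8 and 108 CPM. It was higher in 6 of 8 pools by CPM and in 7 of 8 on the TMM scale, and the ranges overlapped (0.89 ± 0.15, edgeR adjusted p = 7.67e-06). Tnfrsf11a was at 10.6, 22.9 and 40.6 CPM against 3.66, 11.3 and 16.7 CPM, higher in 7 of 8 pools (1.60 ± 0.23, edgeR adjusted p = 6.52e-07). These 3 genes passed the threshold in all 11 alternatives, with log2 fold changes from 0.96 to 1.38 for Relb, 0.53 to 1.003 for Nfkb2 and 1.28 to 1.97 for Tnfrsf11a.

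The other called genes held less well. Map3k14 had 75 UMIs in all high endothelial-like sums and none in the 2 peripheral pools of library 2, where a count of 0 allows up to 31.7 CPM in WT and 47.9 CPM in KO; its pools were at 0, 18.5 and 28.7 CPM against 6.62, 15.03 and 20.7 CPM. The log2 fold change was 0.66 ± 0.26 (edgeR adjusted p = 0.0376), and 7 of 11 alternatives did not call it. Nfkbia was at 713, 1264 and 2732 CPM against 712, 1487 and 1880.1 CPM (0.35 ± 0.09 with TMM, edgeR adjusted p = 0.00119; 0.02 with total UMIs). Tnfrsf1a was at 118, 198 and 239.5 CPM against 167, 201.2 and 229 CPM; its difference of 0.26 ± 0.09 (edgeR adjusted p = 0.0244) turned to -0.09 with total UMIs. Ltbr, Traf3, Nfkb1 and Rela did not pass with TMM; Ltbr, the receptor itself, was at 33.7, 44.6 and 63.9 CPM in high endothelial-like and 48.8, 57.2 and 63.4 CPM in the other blood cells. By CPM it was lower in high endothelial-like cells in 6 of 8 pools and with TMM scaling higher in 6 of 8, so that its direction turns with the scaling.

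The dissociation-response genes moved with this comparison too: all 14 were lower in high endothelial-like cells by edgeR, and their summed level was 7518 to 18564 CPM against 19448 to 51825 CPM. Lymphocyte markers summed to 0 to 37.1 CPM in high endothelial-like and 0 to 2.41 CPM in other blood pools; Ptprc was at 0 in both and Cd79a held the 20 lymphocyte marker UMIs of the high endothelial-like class. Their part in the result was not tested. With the leukocyte-like cells left in the class, Relb (1.14), Nfkb2 (0.76) and Tnfrsf11a (1.53) were the genes called.

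**Figure D3:**
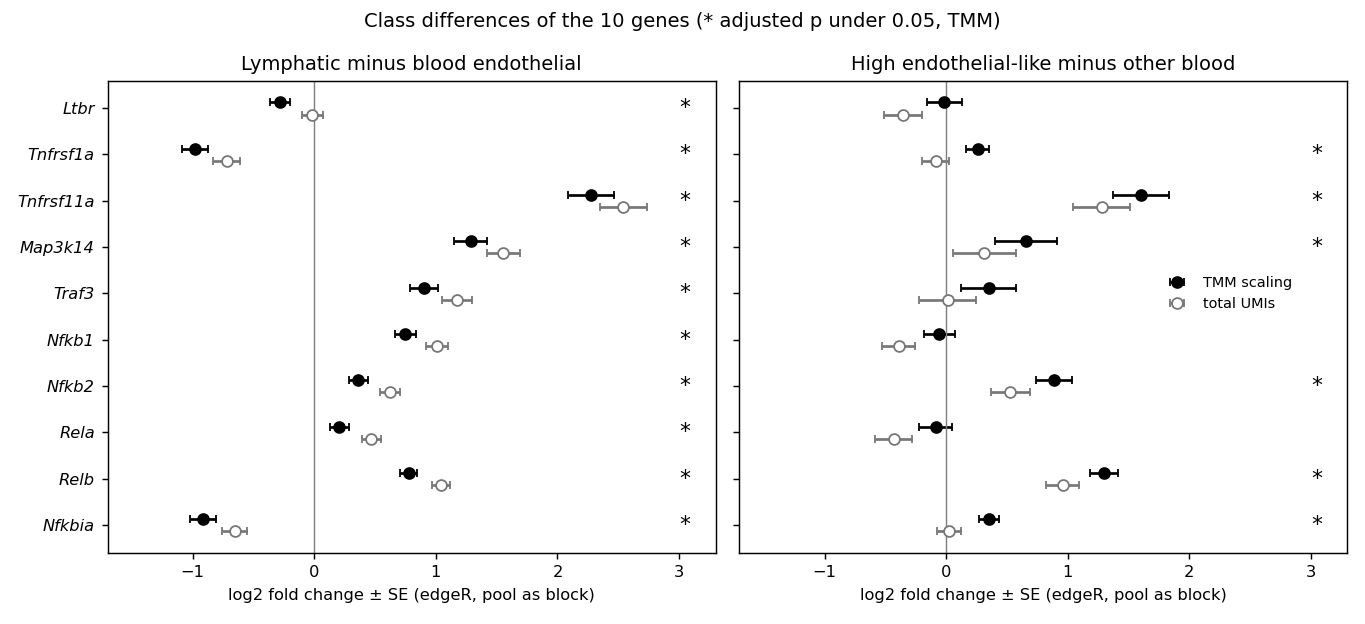
Log2 fold change ± SE (x axis) of the 10 genes (y axis) in lymphatic against blood endothelium and in high endothelial-like against other blood cells, from edgeR with the pool as a block. Filled symbols use TMM scaling, open symbols total UMIs, and an asterisk marks an adjusted p under 0.05 with TMM; Tnfrsf11a, Relb and Nfkb2 are above 0 in both comparisons under both scalings.

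The wider pathway lists, 91 genes in all, were read in the same fits. In lymphatic against blood cells 72 of them were tested, 28 rose and 21 fell, with a median of 0.13, where 29.0% of all genes tested rose and 30.1% fell; in high endothelial-like against other blood cells 57 were tested, 21 rose and 11 fell, with a median of 0.03, where 20.1% of all genes rose and 23.4% fell. Among the ligands Ltb, one chain of the lymphotoxin heterotrimer, was at 374, 448 and 550 CPM (lowest, median and highest of 8 pools) in lymphatic cells, 15.97, 50.6 and 105 CPM in high endothelial-like cells and 2.44, 6.83 and 14.4 CPM in other blood cells. The 3 sets of pools did not overlap, though the lowest high endothelial-like value rests on 1 UMI in a sum of 10 cells. Ltb was 2.96 ± 0.22 higher in high endothelial-like than in other blood cells on the log2 scale (edgeR adjusted p = 1.16e-12). By subset it was highest where Relb, Nfkb2 and Traf3 were, in the Ccl20 and Coch cells (715 CPM, 606 to 1072), followed by the Marco and Clec1b cells (439 CPM). Tnfsf12, which encodes TWEAK, was at 66.7 CPM in high endothelial-like, 87.2 CPM in other blood and 70.9 CPM in lymphatic cells, all pools summed. Among the other ligands of Ltbr and Tnfrsf11a, Lta, the other chain of the heterotrimer, had 1 UMI over all sums of the 3 classes, and in lymphatic cells Tnfsf14 (LIGHT) had 4 and Tnfsf11 (the RANK ligand) 1, with 1 more in other blood cells; these 4 genes were named after their values were seen.

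In lymphatic against blood cells the largest rises among the listed genes were those of Ccl20, a chemokine that NF-kB induces (7.32 ± 0.31), of the complement gene C3 (6.61 ± 0.33) and of Tnf (4.53 ± 0.25, 26.1 CPM in lymphatic cells). In high endothelial-like and other blood cells Ccl20 held 2 and 27 UMIs, C3 23 and 174, and Tnf 8 and 19. The sizes of the Ccl20 and Tnf rises thus rest on few blood UMIs. The largest falls were those of the chemokine Cx3cl1 (-3.97 ± 0.16), the interleukin-1 receptor Il1r1 (-2.55 ± 0.18) and the atypical inhibitor Nfkbid (-2.41 ± 0.18). In high endothelial-like cells, next to Ltb, the complement factor Cfb (2.92 ± 0.12) and the chemokine Cxcl10 (1.85 ± 0.27) rose most, and Cx3cl1 (-5.15 ± 0.34), the adaptor kinase Irak2 (-1.73 ± 0.38) and the growth factor Csf1 (-1.48 ± 0.21) fell most. Cx3cl1 held 6, Irak2 16 and Csf1 54 UMIs in high endothelial-like cells, against 1140, 258 and 778 in other blood cells. The sizes of the Cx3cl1 and Irak2 falls thus rest on few UMIs. All the listed genes named here passed edgeR's adjusted threshold.

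Peripheral nodes were compared with mesenteric nodes over both genotypes (4 pools against 4 in each class). By edgeR none of the 10 genes passed the adjusted threshold in any class, where 0.386% of 6217 genes were called in high endothelial-like, 0.967% of 10035 in other blood and 4.86% of 10688 in lymphatic cells. At an unadjusted p under 0.05 there were 1, 2 and 2 of the 10 genes in the 3 classes, where 7.74%, 8.78% and 19.9% of genes tested were; DESeq2 called 0, 1 and 0 of the 10 and 30, 100 and 341 of all genes. Over the 11 alternatives, 11 to 165, 94 to 597 and 232 to 1360 of all genes were called in the 3 classes. With the library as a replicate block, edgeR called 0, 2 and 1 of the 10. With each library's 2 pools of 1 genotype as a pair, a fit added after seeing the data, it called 1, 2 and 1 of the 10 and 113, 597 and 1238 of all genes. The 4 peripheral and 4 mesenteric pools did not overlap for 1, 3 and 1 of the 10 genes, beside 5.69%, 6.78% and 13.8% of all genes tested in the 3 classes.

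The clearest difference was that of Nfkbia in other blood cells. Peripheral pools were at 1880.1 and 1526 CPM in WT and 1602 and 1717 CPM in KO, mesenteric pools at 876 and 712 CPM in WT and 1008 and 1447 CPM in KO. All peripheral pools were above all mesenteric pools (0.76 ± 0.16, edgeR adjusted p = 0.0588). The alternatives gave 0.64 to 0.89, and 8 of 11 called it, among them the fits with the library (0.76, adjusted p = 0.000995) or the library and genotype (0.77, adjusted p = 0.00084) as a replicate block and DESeq2 (0.76, adjusted p = 0.00256). The make-up of other blood cells differed too. Penk and Col13a1 cells, where Nfkbia was highest, made up 21.6 to 35.1% of peripheral and 3.21 to 6.65% of mesenteric pools. Within that subset, that of Srarp and Scgb3a1 and that of Aqp1 and Dcbld1, the peripheral pool was higher in 4 of 4 pairs. In the remaining blood subsets it was so in 3 of 4, 3 of 4, 2 of 3 and 1 of 1. The part of these shares was not tested. In high endothelial-like cells Nfkbia was at 2732, 1619, 1283 and 1246 CPM in peripheral and 865, 713, 869 and 2091 CPM in mesenteric pools, where the last value, that of KO pool 2, lies inside the peripheral range (0.63 ± 0.25, edgeR adjusted p = 0.465). Without library 2, which leaves a single pool per group, its log2 fold change was 1.12. It was called with the library and genotype as a replicate block (0.69, edgeR adjusted p = 0.0197).

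Nfkb2 in other blood cells was at 93.7, 99.96, 95.9 and 108 CPM in peripheral and 75.9, 60.6, 43.3 and 70.2 CPM in mesenteric pools, also without overlap (0.64 ± 0.16, edgeR adjusted p = 0.118; 0.61 and adjusted p = 0.00994 with the library, 0.63 and adjusted p = 0.00377 with the library and genotype, as a replicate block). Rela in other blood cells did not overlap either (67.9 to 81.8 against 58.3 to 64.2 CPM). Tnfrsf11a in high endothelial-like cells was at 10.6 to 21.6 CPM in peripheral and 24.2 to 40.6 CPM in mesenteric pools, from 1 to 34 UMIs a pool. In lymphatic cells Relb was at 127, 129, 137 and 134 CPM in peripheral and 141, 153, 139 and 155 CPM in mesenteric pools, a small difference without overlap (-0.24 ± 0.11, edgeR adjusted p = 0.225). Tnfrsf1a there was at 91.1 to 117 against 108 to 181 CPM (-0.40 ± 0.15, adjusted p = 0.153). Tnfrsf11a in lymphatic cells was at 86.6 and 126 CPM in WT and 105 and 108 CPM in KO peripheral pools, and at 58.7 and 115 CPM in WT and 60.6 and 84.7 CPM in KO mesenteric pools. The peripheral pool was the higher one in each library and genotype, though the ranges overlapped. With the library as a replicate block it was called (0.43, edgeR adjusted p = 0.0223), as it was with the library and genotype (0.39, adjusted p = 0.0275) and without library 2 (0.58, adjusted p = 0.0177) but not without library 1 (0.19, adjusted p = 0.881).

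Of the listed pathway genes, 2 of 69 tested rose and 0 fell in peripheral other blood cells, where 48 of all 10035 genes tested rose and 49 fell. The 2 that rose were the neutrophil chemokines Cxcl2 (2.07 ± 0.37, edgeR adjusted p = 0.0251) and Cxcl1 (1.14 ± 0.18, adjusted p = 0.0167). In lymphatic cells 1 of 77 tested rose, the AP-1 gene Junb (0.65 ± 0.10), and 7 fell, where 207 of all 10688 genes rose and 312 fell; the largest falls were those of Tnf (-2.73 ± 0.27), Ccl20 (-1.13 ± 0.25) and Il1r1 (-1.07 ± 0.20). Scaling by total UMIs moved the share of higher calls over all genes in that comparison from 39.9% to 63.2%. Of the 14 dissociation-response genes, 5 were called higher and 1 lower in peripheral lymphatic cells and 1 higher and 2 lower in high endothelial-like cells. In other blood cells none was called by edgeR, 7 had an unadjusted p under 0.05, and the median difference was 0.16; the digestion of mesenteric nodes is not described. Of the 3 fibroblast and mural markers tested in lymphatic cells, Dcn was called higher (1.25, edgeR adjusted p = 0.00052) and Rgs5 lower (-0.81, adjusted p = 0.00732) in peripheral nodes, and the 10 summed to 167 to 216 CPM in peripheral and 162 to 293 CPM in mesenteric pools; in other blood cells 0 of 2 tested were called. Myeloid markers summed to 8.46 to 15.6 CPM in peripheral and 3.63 to 6.86 CPM in mesenteric lymphatic pools. In other blood cells they summed to 4.08 to 18.9 against 1.06 to 4.83 CPM. Neither Lyz2 in lymphatic (1.30, edgeR adjusted p = 0.165) nor Cd68 in other blood cells (1.59, adjusted p = 0.252) was called. The part of digestion and of these markers in the tissue differences was not tested.

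Xbp1-KO pools were compared with WT pools in each class, over both tissues and within each, to see whether loss of Xbp1 went with a change in this pathway. By edgeR none of the 10 genes passed the adjusted threshold in any class or tissue. Over both tissues 0.0% of the genes tested were called in each class (6217, 10035 and 10688 genes), and 205, 243 and 633 genes had an unadjusted p under 0.05; within a tissue the one non-zero share was 0.0374% in mesenteric lymphatic cells, 4 genes. DESeq2 called none of the 10 genes and, over both tissues, 0, 4 and 11 genes in the 3 classes. Over both tissues 0, 0 and 1 of the 10 genes had an unadjusted p under 0.05, beside 3.3%, 2.42% and 5.92% of all genes tested in the 3 classes. In peripheral nodes there were 0, 1 and 0, beside 3.86%, 1.24% and 1.1%, and in mesenteric nodes 1, 2 and 1, beside 2.22%, 2.68% and 6.37%. For the difference between tissues there were 1, 1 and 0, beside 3.44%, 1.84% and 2.85%. KO and WT pools did not overlap for 0, 0 and 1 of the 10 genes over both tissues (1.91%, 1.42% and 2.33% of genes tested), for 4, 1 and 2 in peripheral nodes (28.7%, 23.2% and 28.2%) and for 2, 3 and 5 in mesenteric nodes (24.1%, 27.6% and 35.2%).

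Nfkbia had an unadjusted p under 0.05 for genotype in mesenteric high endothelial-like and other blood cells. In mesenteric high endothelial-like cells it was at 869 and 2091 CPM in KO and 865 and 713 CPM in WT pools (0.89 ± 0.35, edgeR adjusted p = 0.9997), and in mesenteric other blood cells at 1008 and 1447 CPM against 876 and 712 CPM (0.69 ± 0.23, adjusted p = 0.99995). Both KO pools were above both WT pools in each class, by very little in library 1 of the high endothelial-like cells. In peripheral high endothelial-like cells the order was the reverse, 1283 and 1246 CPM in KO against 2732 and 1619 CPM in WT. The difference of the genotype effect between tissues (peripheral minus mesenteric) was -1.58 ± 0.50 in high endothelial-like cells and -0.73 ± 0.32 in other blood cells, with unadjusted p = 0.00436 and 0.0445 and an edgeR adjusted p of 0.9998 for both.

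The summed dissociation-response genes moved with the mesenteric values of Nfkbia. In mesenteric pools they stood at 8790 to 18564 CPM in KO and 7518 to 10267 CPM in WT high endothelial-like cells, at 27994 to 51825 against 19448 to 25152 CPM in other blood cells, and at 19707 to 27369 against 13314 to 14755 CPM in lymphatic cells. Of the 14 genes, 14 had a positive mesenteric difference in each of the 3 classes, with medians of 0.61, 0.90 and 0.76 against -0.00, 0.00 and -0.00 over all genes tested. In peripheral high endothelial-like pools, where Nfkbia was lower in KO, the sums overlapped (9064 to 14771 CPM in KO, 11301 to 12871 CPM in WT). Peripheral sums of other blood cells (22120 to 31820 CPM in KO, 24140 to 27032 CPM in WT) lay inside the mesenteric range of that class. The part of these genes in the difference of Nfkbia was not tested.

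**Figure D4:**
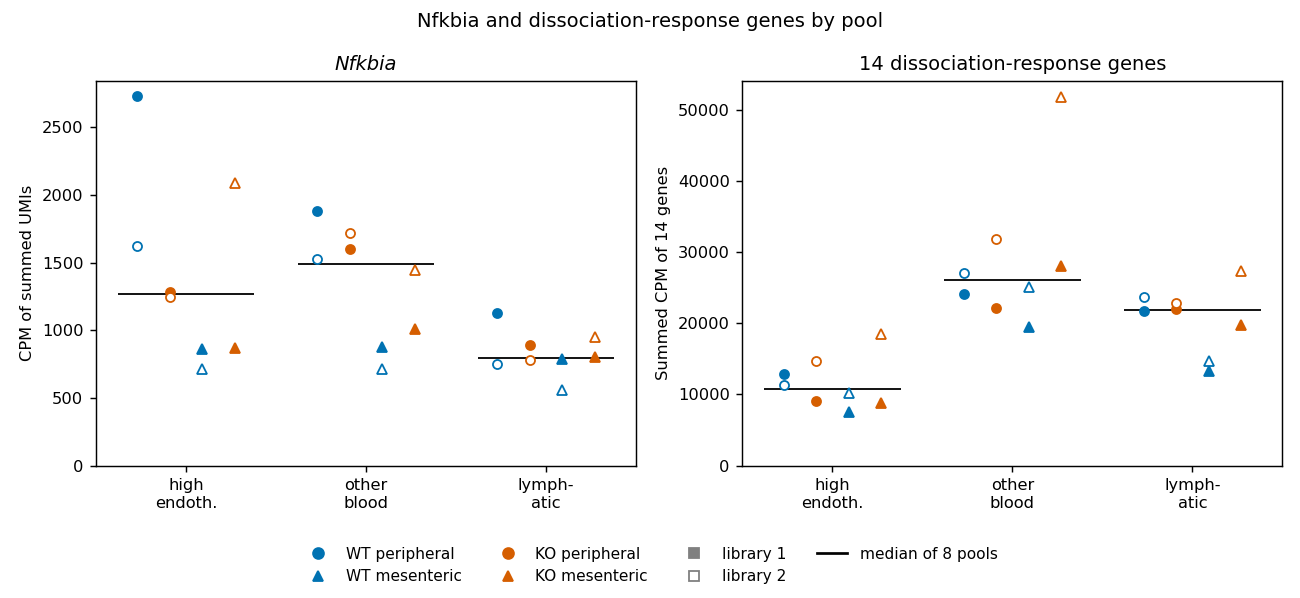
CPM of Nfkbia (left) and summed CPM of 14 dissociation-response genes (right) in the 8 pools of each endothelial class, with the median as a line; colour gives the genotype, shape the tissue and fill the library. The mesenteric KO pool of library 2 is the highest mesenteric pool in all 3 classes in both plots.

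Traf3 in lymphatic cells was at 42.1 and 41.4 CPM in peripheral and 41.1 and 41.8 CPM in mesenteric KO pools, and at 36.5 and 32.0 CPM and 27.5 and 18.8 CPM in the matching WT pools. All 4 KO pools were above all 4 WT pools, and KO pools spread over less than 1 CPM (0.45 ± 0.14, edgeR adjusted p = 0.626; mesenteric alone 0.67 ± 0.23, adjusted p = 0.606). The lowest WT value rests on 8 UMIs from 65 cells. Tnfrsf11a in mesenteric other blood cells was at 15.2 and 16.7 CPM in KO and 8.28 and 7.45 CPM in WT pools, without overlap (1.05 ± 0.47, edgeR adjusted p = 0.99995), while in peripheral pools it was at 9.38 and 13.2 against 16.1 and 3.66 CPM. Map3k14 in peripheral other blood cells was at 13.5 and 6.62 CPM in KO and 16.5 and 20.7 CPM in WT pools (-0.78 ± 0.35, edgeR adjusted p = 0.9997).

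Ltbr, Tnfrsf1a, Nfkb1, Nfkb2, Rela and Relb had no genotype difference with an unadjusted p under 0.05 in any class or tissue. In high endothelial-like cells, for example, Ltbr was at 52.0 ± 16.7 CPM in KO and 57.4 ± 6.30 CPM in WT peripheral pools and at 44.6 ± 0.467 against 36.8 ± 4.25 CPM in mesenteric pools (SD, n = 2), and Relb at 88.1 ± 10.9 against 156 ± 41.4 CPM in peripheral and 110 ± 35.2 against 106 ± 10.0 CPM in mesenteric pools. The peripheral high endothelial-like sums held 10 to 47 cells, the fewest of any class. None of the 91 listed pathway genes was called for genotype in any class by edgeR.

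**Figure D5:**
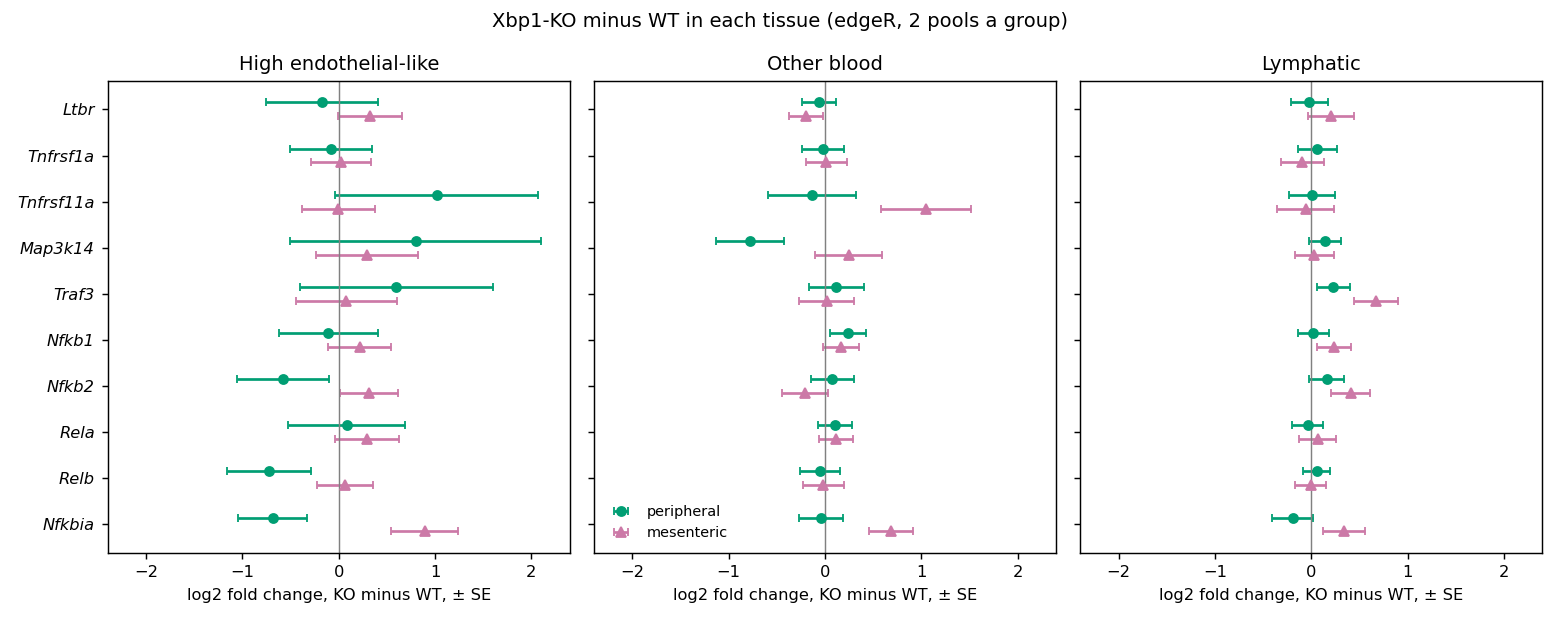
Log2 fold change of Xbp1-KO minus WT ± SE (x axis) for each of the 10 genes (y axis) in the 3 endothelial classes, with circles for peripheral and triangles for mesenteric nodes, 2 pools a group. No symbol passed the adjusted threshold; the widest error bars are those of peripheral high endothelial-like cells.

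Across the 13 subsets the 10 genes did not share one pattern. The log2(CPM + 1) levels of Relb and Nfkb2 had the highest Pearson correlation of any pair (r = 0.92), followed by Nfkb2 with Traf3 (0.88) and Nfkb1 with Map3k14 (0.88), and those of Rela and Tnfrsf1a the lowest (-0.66). Among 10611 other genes that reached 10 CPM in a subset, Tbc1d4 (r = 0.96), Prdx3 (0.93) and Pmpcb (0.93) were most like Tnfrsf11a. The most like Map3k14 were Armcx4 (0.98), Tmx2 (0.96) and Armcx1 (0.94), and the most like Nfkbia were Ppig (0.90), Emp2 (0.90) and Mrps34 (0.85). These are descriptions over 13 points that share libraries and differ in depth, from 571220 to 6876818 UMIs.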

How the data were processed

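The authors deposited raw UMI counts (unique molecular identifiers, 1 per captured RNA molecule) for each gene and barcode, which the file headers credit to Cell Ranger 6.0.1; the submitters' processing notes name Cell Ranger 6.1 and the build mm10. Counting of intronic reads is not given in the sources used here.

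Hashtags were called per library with HTODemux (Seurat 5.3.0, quantile 0.99), which gave 6786 and 2690 single-tag barcodes. Barcodes under 500 genes or over 10% mitochondrial UMIs were removed, as were the doublets marked by Scrublet in scanpy 1.11.5 (57 and 6), which left 9281 cells. Cells were clustered on 1934 variable genes without the 10 genes and the pathway lists (30 components, 15 neighbours, Leiden resolution 1), and clusters were put in classes by marker sets. At least 25% of cells with Prox1 made a cluster lymphatic. A group of 30 cells with leukocyte granule genes, 1 to 10 per pool, was seen at resolution 2 and taken out of the high endothelial-like class after its genes were seen.

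UMIs were summed per pool and class and tested with edgeR 4.0.16 (quasi-likelihood, TMM scaling, filterByExpr, Benjamini-Hochberg adjustment over all genes tested, threshold 0.05). Class differences had the pool as a block. CPM are a gene's UMIs over all UMIs of a sum, without TMM, scaled to a total of 1000000. On data simulated from these sums, 2-fold genotype changes were recovered for 15% of genes in the high endothelial-like class (5029 genes), 65.5% in other blood (9496) and 62.5% in lymphatic cells (10203); 4-fold changes for 81%, 97.5% and 97%. Upper limits where no UMI was counted cover counting error only. The SE of the edgeR fits also cover the spread between pools.

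The 10 genes and all lists were chosen with earlier results of these data known. Fold changes are printed for the 10 genes at an unadjusted p under 0.05 in the main fit, or where an alternative fit called them. Of 91 other pathway genes, at most 3 per comparison and direction are named, by size of the log2 fold change among those past the adjusted threshold. The class tests are not independent of the clustering, which used other genes of the same cells.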

Additional observations from a re-analysis of the deposited data

How the results depend on the processing

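The numbers of the 10 genes called were recomputed without library 1 or 2, with the library as a replicate block (no pool block for classes), DESeq2, no filter on low counts, another hashtag rule, Leiden resolution 2, a stricter cell filter, WT pools alone (classes) and, for genotype in the high endothelial-like class, without sums of fewer than 20 cells; the leukocyte-like cells kept, total UMIs in place of TMM and, for tissue, the library and genotype as a replicate block were chosen after seeing the data. For genotype, every alternative called 0, except that 0 to 1 were called in other blood cells without a replicate (Nfkbia, 0.65, without library 1). For tissue in other blood cells, called genes were 2 with either replicate block, 2 without either library, 1 with DESeq2, 2 without the filter, 1 with the stricter cells and 1 with total UMIs (Nfkbia in all, Nfkb2 where 2). In lymphatic cells they were 1 with either block and 1 without the filter (Tnfrsf11a, 0.39 to 0.43), and 1 without library 1 (Tnfrsf1a, -0.68) or 2 (Tnfrsf11a, 0.58); in high endothelial-like cells 1 with the library and genotype as block and 0 to 1 without a replicate (Nfkbia). For high endothelial-like against other blood cells, 6 became 3 to 4 without a replicate, 3 at resolution 2 and 3 with the leukocyte-like cells; Tnfrsf1a reversed to -0.087 with total UMIs. The cause of these changes was not tested. Without library 1 or 2, a single pool per group remained in the tissue and genotype fits, which took both as additive terms. Against lymphatic cells 7 to 10 were called.

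Every pair of same-library pools deviated together in other blood cells (correlations 0.16 to 0.42; 0.01 to 0.19 in high endothelial-like, 0.06 to 0.23 in lymphatic cells), and pools of 1 library and genotype did so in all 3 classes (0.19 and 0.18 in high endothelial-like, 0.34 and 0.42 in other blood, 0.22 and 0.23 in lymphatic cells); no label says what the number marks. Over all genes, tissue calls of 24, 97 and 519 ranged over 11 to 165, 94 to 597 and 232 to 1360, and genotype calls of 0 over 0 to 39, 0 to 63 and 0 to 80. Low counts limit Map3k14, Traf3 and Tnfrsf11a in high endothelial-like cells (75, 62 and 117 UMIs).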
